A study of Homo sapiens with 24 samples.

Results

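The data compare an HCT116 clone labelled PTDSS2-KO and named PTDSS2-KO#3 in the growth protocol, with the parent HCT116 line, both in vehicle. The comparison holds 6 of the 24 RNA-seq libraries of the study, chosen by their titles: 3 of the PTDSS2-KO clone in DMSO and 3 of the parent line, wild type by its genotype label, in DMSO. The study also treated both genotypes with 0.1 µM DS07551382, an inhibitor of PTDSS1 by the series title, and repeated the design in A375 melanoma cells with 1 further clone, PTDSS2-KO#54. Values of the DS07551382 libraries of HCT116 (3 KO, 3 parent) and of the A375 libraries in DMSO (3 KO, 3 parent) are given beside the comparison. HCT116 is an established human colon cancer line with mutant CTNNB1. Cells were plated in a 12-well plate and harvested after 24 h, and poly(A) RNA was sequenced. The knockout group is 1 clone, so an effect of PTDSS2 loss and a property of that clone cannot be told apart in any value below. Whether the 3 libraries of a group came from separate cultures is not stated in the labels, so the spread behind each p-value is that between these libraries and may be technical.

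Phosphatidylserine is an acidic phospholipid that healthy cells keep on the inner leaflet of the plasma membrane. Mammalian cells make it in the endoplasmic reticulum by exchanging the head group of an existing phospholipid for serine: PTDSS1 uses mainly phosphatidylcholine and PTDSS2 uses phosphatidylethanolamine. PISD turns phosphatidylserine into phosphatidylethanolamine in mitochondria, and flippases and lipid transfer proteins set where phosphatidylserine lies. Cells can live with 1 synthase, and the loss of PTDSS2 in some tumours is the setting that the series title names.

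The KO libraries held 9108761, 8829345 and 9053919 expected counts and the parent libraries 10002741, 9537133 and 9360927. Values below are in CPM, expected counts scaled by library size to a common total, unless another unit is named; genes of different length cannot be compared by CPM. Pearson correlations of log2(CPM + 1) across genes were 0.9927 to 0.9935 among KO libraries, 0.9940 to 0.9946 among parent libraries and 0.9868 to 0.9881 between the genotypes. Of 12 colon epithelium markers, 5 averaged at least 1 TPM in both genotypes (EPCAM, KRT8, KRT18, KRT19 and CDX2), with sums of 4950 to 5203 TPM in KO and 4838 to 4932 TPM in parent libraries. The differentiation markers VIL1, CDH17, CEACAM5 and LGALS4 were at or near 0 in both, and CDX1 was at 0. Of 8 melanocyte markers, PMEL alone reached 1 TPM, of 6 fibroblast markers COL1A1 alone and of 7 leukocyte markers CD68 alone, and these 3 marker sums were at most 4.04, 6.93 and 3.85 TPM in KO libraries, against at most 4.73, 8.26 and 7.12 TPM in parent libraries.

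PTDSS2 RNA was low but not absent in the clone. It stood at 5.46, 6.42 and 7.91 CPM in the KO libraries, against 36.1, 33.1 and 37.8 CPM in the parent libraries. All 3 KO libraries lay far below the lowest parent library, and the clone kept 18.5% of the parent level, a log2 fold change of -2.43 ± 0.11 (edgeR adjusted p = 1.233e-28). The deposited TPM gave 18.23%. In bulk RNA, fewer cells with the transcript and less RNA per cell cannot be told apart. PTDSS1 had 108, 108 and 109 CPM in the KO libraries, against 129.6, 125 and 121 CPM in the parent libraries. The KO libraries were all lower and close together, and PTDSS1 fell by 0.21 on the log2 scale (SE 0.04; edgeR adjusted p = 0.0002351), so the remaining synthase was not raised at the RNA level. PISD had 52.8, 52.96 and 52.2 CPM in the KO libraries, against 49.0, 54.6 and 49.5 CPM in the parent libraries. Its groups overlapped, and the log2 difference of 0.04 ± 0.06 did not pass the test (edgeR adjusted p = 0.6615). In the 6 libraries with DS07551382, which the comparison in DMSO does not use, PTDSS2 stood at 7.19, 4.87 and 5.07 CPM in KO and 39.4, 38.2 and 34.4 CPM in parent cells.

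**Figure D1:**
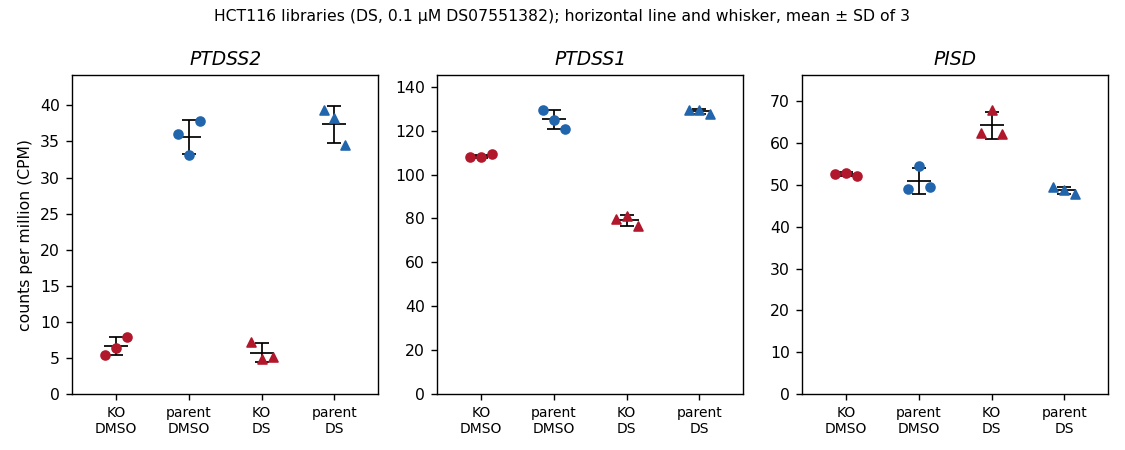
PTDSS2, PTDSS1 and PISD in CPM (y axis, from 0) in each HCT116 library, KO left of parent, in DMSO (circles) and in 0.1 µM DS07551382 (DS, triangles); horizontal lines and whiskers are means ± SD of 3 libraries. PTDSS2 lies between 5.46 and 7.91 CPM in KO libraries and between 33.1 and 37.8 CPM in parent libraries in DMSO, and the PISD groups overlap there.

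Outside PTDSS2, the clone differed from the parent in many genes by small amounts. Of 13164 genes tested, 2804 (21.3%) had an edgeR adjusted p under 0.05, here called: 1383 (10.5%) were higher and 1421 (10.8%) lower in KO cells. Changes under 1.5-fold made up 83.42% of the called genes, 2339 in all. At least 2-fold changes were called upward in 81 genes (0.615%) and downward in 102 (0.775%). The median log2 fold change of all genes tested was -0.0016 with TMM scaling, which centres the changes near 0, and 0.0014 with library size alone. The 3 KO libraries lay wholly above or wholly below the 3 parent libraries in 4521 genes (34.3%), among them 2653 of the called genes. DESeq2 called 1798 genes, 905 higher and 893 lower, of which 1792 were among the 2804.

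**Figure D2:**
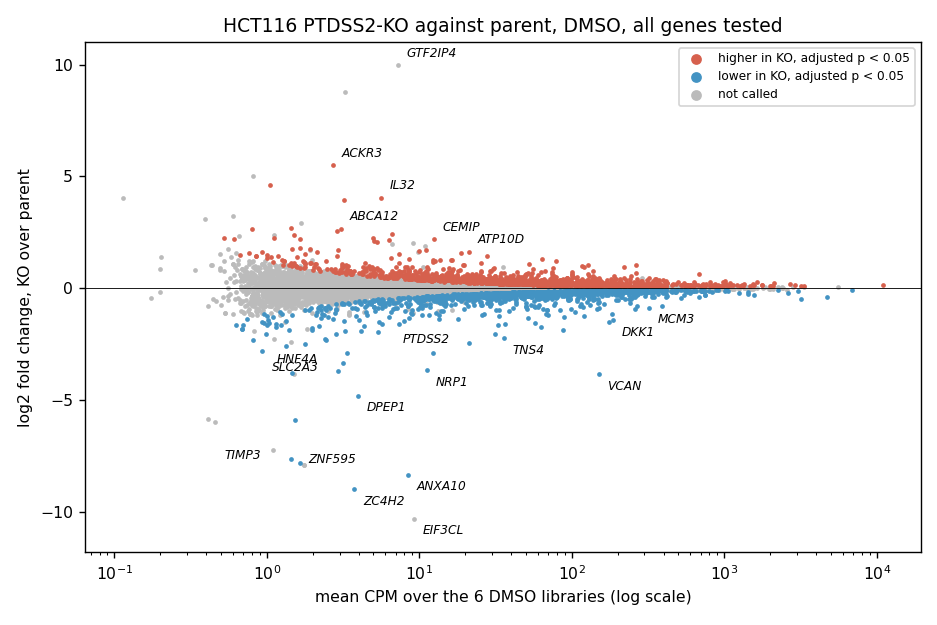
Log2 fold change, KO over parent (y axis), against the mean CPM of the 6 DMSO libraries (x axis, log scale), for the genes tested, in red where higher in KO with an adjusted p under 0.05, in blue where lower and in grey where not called. Most called genes lie close to 0, while among called genes ZC4H2, ANXA10, ZNF595 and TIMP3 stand lowest and ACKR3 is among the highest; EIF3CL and GTF2IP4, further out, were not called, and the fitted values of genes with 0 or few counts in a group depend on the prior count.

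The largest differences were of genes whose RNA was present in 1 genotype and nearly absent in the other. ZC4H2, a zinc finger protein of neural development, had 0 counts in the 3 KO libraries, against 7.64, 7.38 and 7.45 CPM in the parent libraries, 216 counts in all. A floor of 3 counts over the KO group makes it at least 67.39-fold lower in KO. With DS07551382 the KO libraries held 1 count and the parent libraries 219. ANXA10, an annexin and so a member of a family that binds acidic phospholipids in the presence of calcium, had 1 count over the KO libraries and 483 over the parent libraries, where it stood at 17.8, 16.8 and 15.6 CPM. The parent over KO ratio was 452 (95% counting interval 80.75 to 1.789e+04, which covers counting error only), and the DS07551382 libraries held 0 counts in KO and 483 in parent cells. TIMP3, an inhibitor of matrix metalloproteinases, had 0 counts in KO against 83 in parent libraries, at least 25.89-fold lower, with 4 against 74 with DS07551382. ZNF595, a C2H2 zinc finger gene, had 0 counts against 95, at least 29.64-fold lower, with 0 against 77 with DS07551382. These 4 genes were called as lower in both sets of libraries (edgeR adjusted p = 1e-21, 1.992e-30, 5.608e-11 and 2.91e-13 in DMSO).

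The promoters of 3 of these genes and of IL32, described next, are printed because their RNA was near 0 in 1 genotype only. Each shows the 250 bases before and 50 bases after the RefSeq start (GRCh38.p14), 5′ to 3′ on the gene's strand, with the dinucleotide CG in capitals, counted on this strand (the other strand holds the same CG sites).
ZC4H2, chrX:64976401-64976700, minus strand: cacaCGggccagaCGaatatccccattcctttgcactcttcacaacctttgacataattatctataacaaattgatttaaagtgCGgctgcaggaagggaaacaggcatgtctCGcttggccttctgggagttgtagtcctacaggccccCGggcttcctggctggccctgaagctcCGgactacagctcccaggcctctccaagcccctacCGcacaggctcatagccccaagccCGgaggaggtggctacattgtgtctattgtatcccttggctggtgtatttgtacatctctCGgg
ANXA10, chr4:168092287-168092586, plus strand: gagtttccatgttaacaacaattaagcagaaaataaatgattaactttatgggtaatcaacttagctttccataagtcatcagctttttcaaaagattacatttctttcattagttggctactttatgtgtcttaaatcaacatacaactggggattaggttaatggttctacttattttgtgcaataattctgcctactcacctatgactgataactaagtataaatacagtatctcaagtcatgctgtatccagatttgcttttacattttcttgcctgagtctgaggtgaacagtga
TIMP3, chr22:32801455-32801754, plus strand: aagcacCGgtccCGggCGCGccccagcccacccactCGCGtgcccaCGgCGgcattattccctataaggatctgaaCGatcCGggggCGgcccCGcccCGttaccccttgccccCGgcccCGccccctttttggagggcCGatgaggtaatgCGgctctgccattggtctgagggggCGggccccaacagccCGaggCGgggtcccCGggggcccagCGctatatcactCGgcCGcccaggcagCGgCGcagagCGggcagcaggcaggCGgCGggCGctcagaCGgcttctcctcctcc
IL32, chr16:3065153-3065452, plus strand: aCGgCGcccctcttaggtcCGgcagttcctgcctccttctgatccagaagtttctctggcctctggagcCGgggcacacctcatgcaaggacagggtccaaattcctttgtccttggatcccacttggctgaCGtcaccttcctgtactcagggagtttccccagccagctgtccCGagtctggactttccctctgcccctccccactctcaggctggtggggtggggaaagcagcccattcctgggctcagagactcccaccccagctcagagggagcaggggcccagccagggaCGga
TIMP3 has 31 CG in this window, ZC4H2 9, IL32 7 and ANXA10 none, and the ZNF595 window, not printed, has 12. Among 10506 tested genes with a RefSeq promoter the median was 27 (quartiles 19 and 35). At least as many CG as in TIMP3 occur in 36.7% of these promoters, as in ZNF595 in 87.57%, as in ZC4H2 in 90.74% and as in IL32 in 92.73%, while 0.4188% have none, as in ANXA10. Of the 5 genes, 4 lie below the lower quartile and TIMP3 lies between the quartiles. IL32 was picked after its values were seen. Other genes near 0 in 1 genotype, such as ZNF426 and PURPL, were not counted, so this holds for these 5 genes only.

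Further genes with large differences, some with RNA near 0 in 1 genotype, were picked after their values were seen. All were under 8 CPM on average over the 6 libraries. DPEP1, a membrane dipeptidase often high in colorectal tumours, had 0, 0.344 and 0.440 CPM in the KO libraries, against 7.44, 7.91 and 7.55 CPM in the parent libraries, a log2 fold change of -4.80 ± 0.35 (edgeR adjusted p = 1.854e-18). ZNF426 had 1 count over the KO and 87 over the parent libraries, a parent over KO ratio of 81.42 (95% counting interval 14.23 to 3253). ZNF550 had 0.218, 0.344 and 0 CPM in the KO libraries, against 2.21, 2.85 and 3.19 CPM in the parent libraries (-3.79 ± 0.49). LAMA4, a laminin chain, had 0.437, 0.688 and 1.21 CPM in the KO libraries, against 5.43, 6.65 and 5.75 CPM in the parent libraries (-2.91 ± 0.30). In none of these did a KO library reach the lowest parent library. On the other side, ACKR3, a scavenging receptor for CXCL12, had 144 counts over the KO and 3 over the parent libraries, a KO over parent ratio of 51.29 (95% counting interval 17.2 to 251.6). IL32, a cytokine gene, had 11.1, 11.3 and 9.34 CPM in the KO libraries, against 0.704, 0.527 and 0.638 CPM in the parent libraries, a rise of 4.05 ± 0.25 (edgeR adjusted p = 6.202e-22). PROM2, a pentaspan protein of membrane protrusions, had 11.2, 9.86 and 12.3 CPM in the KO libraries, against 2.21, 1.27 and 2.77 CPM in the parent libraries (2.41 ± 0.20). TNNC1, the calcium-binding troponin of heart and slow muscle, had 5.68, 4.82 and 4.29 CPM in the KO libraries, against 0.603, 0.844 and 1.06 CPM in the parent libraries (2.54 ± 0.31). PURPL, a long non-coding RNA known as a p53 target, had 55 counts over the KO and 2 over the parent libraries, a ratio of 29.38 (95% counting interval 7.757 to 248.7). In the DS07551382 libraries the log2 fold changes had the same signs: 4.57 for ACKR3, 3.59 for IL32, 3.05 for PROM2, -4.80 for DPEP1 and -2.97 for LAMA4.

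A few genes at 0 in 1 group share sequence with near-identical partners and are uncertain. EIF3CL, a copy of EIF3C, had 0 counts in KO and 532 in parent libraries in DMSO, but with DS07551382 it had 144, 0 and 151 counts in KO libraries and 0 in parent libraries. The pseudogene GTF2IP4 had 398 counts in 1 KO library and 0 in the other 5 libraries in DMSO. The read-through genes RPS10-NUDT3 and EEF1E1-BLOC1S5 were at 0 in all 3 libraries of 1 genotype in DMSO (KO for RPS10-NUDT3, parent for EEF1E1-BLOC1S5), and with DS07551382 in at least 1 library of each genotype. EdgeR on the 12 HCT116 libraries called none of these 4 in DMSO, while on only the 6 libraries compared it called EIF3CL and RPS10-NUDT3, and DESeq2 called EIF3CL, GTF2IP4 and EEF1E1-BLOC1S5. TBC1D3C had 37 counts in a single KO library, was at 0 in the other HCT116 libraries in DMSO and was not tested.

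The 15 largest falls among genes of at least 8 CPM included the following. VCAN, the matrix proteoglycan versican, had 21.1, 18.9 and 18.5 CPM in the KO libraries, against 280.0, 279.5 and 286 CPM in the parent libraries. The 3 KO libraries lay within a narrow range more than 10 times below the parent libraries, a log2 fold change of -3.85 ± 0.05 (edgeR adjusted p = 6.93e-60). NRP1, a co-receptor for semaphorins and VEGF, had 2.18, 1.15 and 1.54 CPM in the KO libraries, against 21.3, 20.5 and 21.3 CPM in the parent libraries (-3.68 ± 0.17; adjusted p = 5.146e-29). TNS4, a tensin of focal adhesions, had 13.3, 12.2 and 12.2 CPM in the KO libraries, against 60.3, 60.1 and 56.9 CPM in the parent libraries (-2.23 ± 0.09; adjusted p = 1.071e-26). ADAM19, a membrane metalloprotease, had 36.0, 39.1 and 38.7 CPM in the KO libraries, against 142, 129 and 145 CPM in the parent libraries (-1.87 ± 0.06; adjusted p = 1.376e-38). In each of these the groups were well separated. F3, the tissue factor that starts coagulation, had 27.2, 27.3 and 32.9 CPM in the KO libraries, against 83.3, 85.2 and 88.2 CPM in the parent libraries (-1.55 ± 0.06). PALLD, the actin-bundling protein palladin, had 93.4, 94.6 and 89.7 CPM in the KO libraries, against 262, 258 and 259 CPM in the parent libraries (-1.49 ± 0.04), and HS3ST1, which sulfates heparan sulfate, fell by 1.75 on the log2 scale. DKK1, a secreted inhibitor of Wnt signalling, had 95.1, 107 and 102 CPM in the KO libraries, against 279, 280.1 and 260.2 CPM in the parent libraries (-1.43 ± 0.04; adjusted p = 7.099e-40). TNIK, a kinase of the Wnt pathway, changed by -1.61 ± 0.08, the serotonin receptor gene HTR7 by -1.65 ± 0.08, TMEM200A by -2.04 ± 0.09 and GREB1L by -1.38 ± 0.12. RGPD8, one of a family of near-identical RANBP2-like genes, had 8.52, 0 and 0 CPM in the KO libraries, against 17.5, 23.7 and 23.6 CPM in the parent libraries; its call (adjusted p = 0.03539) was lost in 10 of 15 alternative settings, DESeq2 among them, and reads may be shared with its copies.

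The 15 largest rises at this level were smaller than the largest falls. CEMIP, a protein of hyaluronan turnover, had 22.3, 19.9 and 18.9 CPM in the KO libraries, against 4.42, 4.85 and 4.15 CPM in the parent libraries, a rise of 2.18 ± 0.13 (edgeR adjusted p = 3.512e-22). Its KO libraries were all more than 3 times the highest parent library. MEF2C, a MADS-box transcription factor, had 40.4, 41.0 and 40.8 CPM in the KO libraries, against 15.2, 15.3 and 13.8 CPM in the parent libraries (1.46 ± 0.09; adjusted p = 4.547e-21). The zinc finger genes ZNF704, ZNF469 and ZNF608 rose by 1.30 ± 0.06, 1.25 ± 0.13 and 1.18 ± 0.13. Genes of epithelial cells were the keratins KRT80, at 13.4, 16.3 and 15.6 CPM in the KO libraries, against 5.63, 4.54 and 4.04 CPM in the parent libraries (1.67 ± 0.15), and KRT23, at 18.8, 18.1 and 16.5 CPM in the KO libraries, against 7.54, 7.70 and 7.55 CPM in the parent libraries (1.23 ± 0.12), and the calcium-binding protein S100A14, at 112, 116 and 105 CPM in the KO libraries, against 47.5, 52.0 and 44.8 CPM in the parent libraries (1.202 ± 0.06; adjusted p = 1.091e-28). All 3 were higher in every KO library than in any parent library. ATP10D, a P4-ATPase of the flippase family, had 31.4, 32.9 and 32.0 CPM in the KO libraries, against 12.2, 9.39 and 9.26 CPM in the parent libraries (1.64 ± 0.10; adjusted p = 1.068e-21). Signalling and trafficking genes were the tyrosine kinase SYK (1.26 ± 0.11), the AMP-activated kinase subunit PRKAA2 (1.25 ± 0.13), the endocytic adaptor EPN3 (1.60 ± 0.11), the lysosomal protease CTSH (1.25 ± 0.11) and the microtubule-associated protein MAP2 (1.33 ± 0.15).

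**Figure D3:**
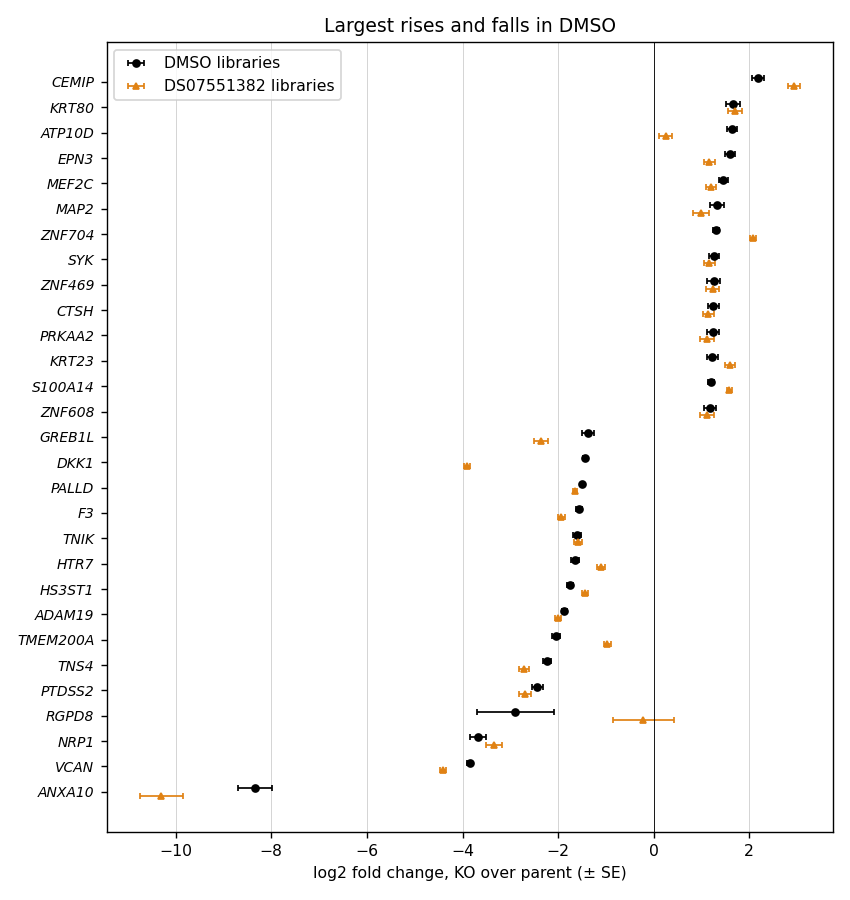
Log2 fold change, KO over parent, with SE (x axis), of 14 of the 15 largest rises and the 15 largest falls in DMSO among genes of at least 8 CPM (1 rise is not drawn), in the DMSO libraries (black circles) and in the DS07551382 libraries (orange triangles). Of the 15 rises 14 were also called higher with DS07551382 and of the 15 falls 14 also lower; ATP10D and RGPD8 were not called there, and the size of the ANXA10 values depends on the prior count.

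Genes were then read by pathway in 51 lists, whose members were chosen with earlier results of these data known. The share of a list that was called is set against the 10.5% higher and 10.8% lower of all genes, and no list was tested as a set.

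**Figure D4:**
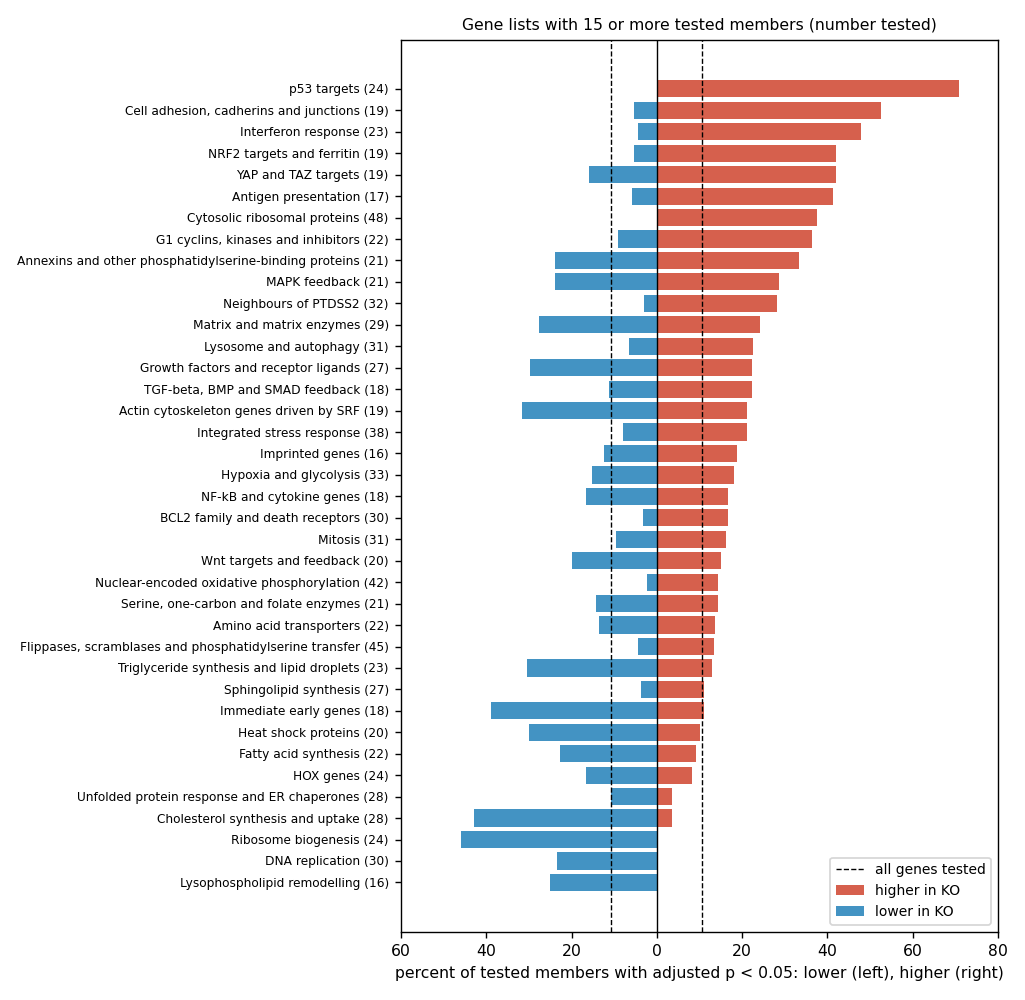
Percent of tested members called lower (left, blue) and higher (right, red) in KO cells in DMSO, for the lists with 15 or more tested members, whose number stands in parentheses; dashed lines mark all genes tested (10.8% lower, 10.5% higher). The p53 list has the highest share upward, 17 of 24, and ribosome biogenesis the highest share downward, 11 of 24.

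Genes that p53 is known to induce were the list with the highest share of rises. Of 24 tested, 17 rose and none fell, with a median log2 fold change of 0.29; 15 to 17 rose in every alternative setting. CDKN1A, the cell cycle inhibitor p21, had 218, 226 and 223 CPM in the KO libraries, against 168, 170.5 and 164 CPM in the parent libraries (0.41 ± 0.04; edgeR adjusted p = 1.7e-14). MDM2, the ubiquitin ligase that limits p53, had 279, 259 and 296 CPM in the KO libraries, against 196, 215 and 210.4 CPM in the parent libraries (0.43 ± 0.04; adjusted p = 3.474e-13). The 3 KO libraries exceeded the 3 parent libraries for both. FDXR, a mitochondrial reductase, had 118, 122 and 114 CPM in the KO libraries, against 77.8, 85.5 and 84.2 CPM in the parent libraries (0.52 ± 0.05), and TP53I3, a quinone oxidoreductase, had 23.1, 28.1 and 28.4 CPM in the KO libraries, against 12.7, 13.8 and 11.8 CPM in the parent libraries (1.05 ± 0.10). The pro-apoptotic genes BBC3, at 0.61 ± 0.11, and BAX, at 0.30 ± 0.06, and the repair gene DDB2, at 0.39 ± 0.07, rose too. ABCA12, a lipid transporter of keratinocytes, had 6.01, 5.04 and 4.83 CPM in the KO libraries, against 0.904, 0.633 and 0.958 CPM in the parent libraries (2.65 ± 0.28), the largest rise of the list. The 7 tested members that were not called ran from -0.05 for AEN to 0.23 for FAS. All 17 were also called higher in the DS07551382 libraries. In A375, where 7.08% of genes were called higher, 6 of 25 members were called higher and 1 lower. The difference between the lines was called for 12, all larger in HCT116. That difference holds the same HCT116 libraries as the rises, so the 12 are not an independent count.

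Junction genes of epithelial cells were called higher more often than lower. Of 19 tested adhesion, cadherin and junction genes 10 rose and 1 fell (median 0.22). CLDN4, a claudin of tight junctions, had 152, 159.9 and 151 CPM in the KO libraries, against 79.2, 75.8 and 77.8 CPM in the parent libraries (0.99 ± 0.05; edgeR adjusted p = 1.909e-28). CDH1, the epithelial cadherin, had 61.0, 64.4 and 65.4 CPM in the KO libraries, against 40.1, 38.2 and 41.0 CPM in the parent libraries (0.68 ± 0.06; adjusted p = 1.291e-14). The groups did not overlap for either gene. CLDN7 rose by 0.55 ± 0.04, CLDN3 by 0.79 ± 0.16, OCLN, the tight junction protein occludin, by 0.65 ± 0.07, JUP, the catenin plakoglobin, by 0.36 ± 0.04 and CDH3 by 0.46 ± 0.04. L1CAM, a neural cell adhesion molecule, was the member that fell (-0.75 ± 0.13). In the list of epithelial to mesenchymal transition 4 of 10 tested genes rose and 2 fell (1 without parent replicate 2 or KO replicate 1, and 1 with a filter at 5 CPM). The risers include GRHL2, a grainyhead factor of epithelial genes, at 40.6, 39.9 and 37.1 CPM in the KO libraries, against 19.3, 21.9 and 22.9 CPM in the parent libraries (0.88 ± 0.08), ELF3, an epithelial ETS factor (0.62 ± 0.06), and ESRP1, an epithelial splicing regulator (0.41 ± 0.04). VIM, the mesenchymal filament vimentin, had 1.201, 0.802 and 1.32 CPM in the KO libraries, against 4.42, 4.22 and 5.21 CPM in the parent libraries (-2.04 ± 0.29; adjusted p = 4.748e-08), low in both genotypes. Colon identity genes did not move one way: 4 of 9 tested rose (2 without parent replicate 1 or KO replicate 2) and 2 fell. HNF4A, a nuclear receptor of gut and liver, had 0.546, 0.573 and 0.549 CPM in the KO libraries, against 5.03, 6.96 and 5.32 CPM in the parent libraries (-3.34 ± 0.32; adjusted p = 1.578e-13), and EPCAM changed by 0.23 ± 0.03.

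**Figure D5:**
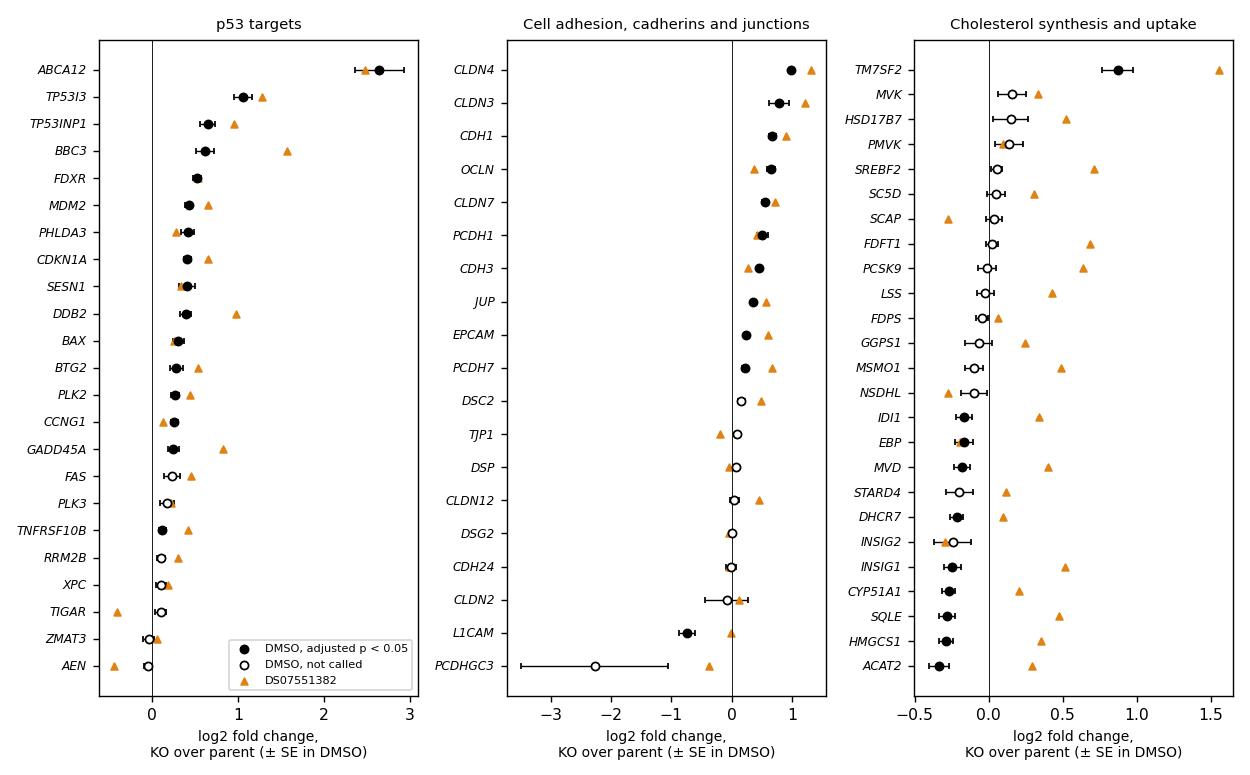
Log2 fold change, KO over parent (x axis), of tested members of 3 lists (4 members are not drawn but count in the numbers given): DMSO with SE (circles, filled where the adjusted p is under 0.05) and DS07551382 (triangles). In DMSO p53 targets and junction genes lie mostly right of 0 (17 of 24 and 10 of 19 called higher) and cholesterol genes mostly left (12 of 28 called lower), while with DS07551382 most cholesterol genes lie right of 0 (19 called higher).

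Cholesterol synthesis and uptake genes were lower by small amounts: of 28 tested 12 fell and 1 rose, with a median log2 fold change of -0.12. CYP51A1, the sterol demethylase, had 119.7, 124 and 113 CPM in the KO libraries, against 147, 146 and 138 CPM in the parent libraries (-0.27 ± 0.04; edgeR adjusted p = 9.726e-07). Its 3 KO libraries were the lowest. HMGCS1 and SQLE, enzymes of the mevalonate and sterol steps, changed by -0.29 ± 0.05 and -0.28 ± 0.05, ACAT2, a thiolase, by -0.34 ± 0.07 and INSIG1, which holds back SREBP processing, by -0.25 ± 0.06. SREBF2, the main activator of these genes, was at 0.05 and was not called. TM7SF2, a sterol reductase, was the riser (23.1, 20.8 and 20.2 CPM in the KO libraries, against 12.2, 11.3 and 11.6 CPM in the parent libraries; 0.87 ± 0.11). In the DS07551382 libraries, where 24.8% of all genes were called higher, the direction was the opposite for most of the list: 19 of 28 were higher in KO and 4 lower, and 9 of the 13 called in DMSO were called the other way. In fatty acid synthesis 5 of 22 fell and 2 rose (1 by DESeq2 and without parent or KO replicate 3): FASN, the fatty acid synthase, had 1347, 1311 and 1271 CPM in the KO libraries, against 1522, 1547 and 1631 CPM in the parent libraries (-0.26 ± 0.03), SCD, the stearoyl-CoA desaturase, 1167, 1187 and 1166 CPM in the KO libraries, against 1369, 1338 and 1318 CPM in the parent libraries (-0.19 ± 0.03), and ACSL5, an acyl-CoA synthetase, 55.8, 53.8 and 58.8 CPM in the KO libraries, against 110.0, 116 and 109 CPM in the parent libraries (-0.99 ± 0.05). DESeq2 called 3 of these as lower in place of 5.

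Among triglyceride genes the largest changes were of acyltransferases at the start of the pathway. Of 23 tested triglyceride and lipid droplet genes 7 fell and 3 rose; 3 fell by DESeq2 and 4 without KO replicate 2. GPAT3, a glycerol-3-phosphate acyltransferase, had 30.7, 39.3 and 37.5 CPM in the KO libraries, against 64.4, 66.3 and 63.3 CPM in the parent libraries (-0.85 ± 0.07; edgeR adjusted p = 1.972e-17). AGPAT4, an acyltransferase for lysophosphatidic acid, had 5.02, 5.73 and 6.15 CPM in the KO libraries, against 13.2, 12.4 and 11.6 CPM in the parent libraries (-1.14 ± 0.15; adjusted p = 3.294e-09). Both were lower in every KO library. GPAM, the mitochondrial isoform of the first enzyme, changed by -0.39 ± 0.05, while AGPAT3 rose by 0.26 ± 0.05. Of 10 tested genes of phosphatidylethanolamine and phosphatidylcholine synthesis, only CHPT1, a cholinephosphotransferase, was called, and without KO replicate 2 ETNK1, an ethanolamine kinase, was called higher too. CHPT1 had 10.9, 11.3 and 10.4 CPM in the KO libraries, against 19.7, 18.7 and 17.7 CPM in the parent libraries (-0.78 ± 0.11, edgeR adjusted p = 5.629e-08). With DS07551382 1 of the 10 genes of this list was called higher and 3 lower, against 24.8% higher and 26% lower of all genes. Of 8 tested genes for CDP-diacylglycerol, phosphatidylinositol and cardiolipin, CDS1 (0.24 ± 0.07) and PGS1 (0.20 ± 0.07) rose, 2 calls that DESeq2 did not make and of which 1 was lost without parent replicate 1, 2 or 3 or KO replicate 1 or 3. Lysophospholipid remodelling genes were called lower in 4 of 16 (2 without KO replicate 1) and higher in none (1 without parent replicate 3 or KO replicate 1): LPCAT3, which puts polyunsaturated chains into phospholipids, changed by -0.38 ± 0.06, the lipase ABHD6 by -0.48 ± 0.12 and LPCAT4 by -0.26 ± 0.08. MBOAT1 was at -0.37 ± 0.12, and DESeq2 called neither LPCAT4 nor MBOAT1. MBOAT1 and LPCAT4 can acylate lysophosphatidylserine or lysophosphatidylethanolamine.

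Flippases, scramblases and phosphatidylserine transfer genes were called at about the rate of all genes, and annexins and other phosphatidylserine-binding proteins more often. Of 45 tested flippases, scramblases and phosphatidylserine transfer proteins, 6 rose and 2 fell (1 by DESeq2 and without parent replicate 2 or KO replicate 2 or 3; median 0.03), 17.78% of them, against 21.3% of all genes. Besides ATP10D, ATP8B1, a flippase of the apical membrane, had 35.3, 36.9 and 39.9 CPM in the KO libraries, against 22.3, 21.9 and 21.5 CPM in the parent libraries (0.77 ± 0.09; edgeR adjusted p = 1.022e-10). OSBPL8, which carries phosphatidylserine from the endoplasmic reticulum to the plasma membrane, had 115, 109.7 and 115 CPM in the KO libraries, against 164, 161 and 161 CPM in the parent libraries (-0.52 ± 0.04; adjusted p = 1.91e-16). The KO libraries were the 3 highest for ATP8B1 and the 3 lowest for OSBPL8. SERINC2, of a family first described as serine incorporators, rose by 0.30 ± 0.05. Of 21 tested annexins and other phosphatidylserine-binding proteins 7 rose and 5 fell, 57.14% of them, with 4 rising without parent replicate 2. ANXA3 had 181, 194 and 186 CPM in the KO libraries, against 303, 291 and 286 CPM in the parent libraries (-0.65 ± 0.04; adjusted p = 6.746e-24) and ANXA1 345, 379 and 358 CPM in the KO libraries, against 477, 481 and 458 CPM in the parent libraries (-0.39 ± 0.03; adjusted p = 8.92e-16), both lower in all KO libraries, while ANXA2 rose by 0.19 ± 0.03 and ANXA4 by 0.27 ± 0.07. AXL, a receptor tyrosine kinase that binds phosphatidylserine through its ligand GAS6, had 168, 185 and 171 CPM in the KO libraries, against 101, 109 and 97.7 CPM in the parent libraries (0.77 ± 0.04; adjusted p = 2.834e-23), and GAS6 changed by -0.23 ± 0.05. With DS07551382 the log2 fold change of AXL was -0.18. Sphingolipid genes rose in 3 of 27 (1 by DESeq2 and without parent replicate 3) and fell in 1 (none by DESeq2 or without parent replicate 1 or 2 or KO replicate 3). Among lipid phosphate phosphatases and lipins 3 of 12 rose (1 by DESeq2 and without parent replicate 1 or 2 or KO replicate 3) and 1 fell (none without KO replicate 1, 2 without KO replicate 3), LPIN1 at -0.35 ± 0.10.

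Genes of ribosome assembly and of the ribosome itself were called in opposite directions. None of 24 tested ribosome biogenesis factors rose and 11 fell (median -0.10); 7 fell by DESeq2 and also 7 without parent replicate 1 or 2 or KO replicate 1 or 3. FBL, the methyltransferase fibrillarin, had 288, 288 and 278 CPM in the KO libraries, against 333, 339 and 311 CPM in the parent libraries (-0.20 ± 0.03; edgeR adjusted p = 3.716e-06), and MYC had 288, 293 and 275 CPM in the KO libraries, against 329.5, 324 and 332 CPM in the parent libraries (-0.20 ± 0.03; adjusted p = 2.461e-06). The KO libraries were lower throughout for both. Of 48 tested cytosolic ribosomal protein genes 18 rose and none fell, by a median of 0.07 over the 48; 11 rose without KO replicate 2. RPL12 had 1073, 1140 and 1050 CPM in the KO libraries, against 899.6, 888 and 862 CPM in the parent libraries (0.30 ± 0.03) and RPL3 rose by 0.21 ± 0.03. Many ribosomal protein genes have processed pseudogenes that could take part of their reads. Of 30 DNA replication genes 7 fell and none rose, with 4 falling by DESeq2 and 4 without KO replicate 3. MCM3, a subunit of the replicative helicase, had 229.9, 226 and 233 CPM in the KO libraries, against 407, 421 and 424 CPM in the parent libraries (-0.86 ± 0.03; adjusted p = 3.768e-32), while MCM6, of the same complex, was at -0.14 ± 0.04. Of 31 mitotic genes 5 rose (3 without KO replicate 2) and 3 fell. AURKA, a spindle pole kinase, had 63.1, 72.7 and 67.6 CPM in the KO libraries, against 129, 135 and 128 CPM in the parent libraries (-0.95 ± 0.05; adjusted p = 1.179e-25), and KIF2C, a kinesin of the centromere, 98.1, 94.9 and 100.4 CPM in the KO libraries, against 167, 166 and 163 CPM in the parent libraries (-0.76 ± 0.05; adjusted p = 9.082e-23). These single falls were large beside other members: CENPF rose by 0.16 ± 0.03 and CDC25C by 0.43 ± 0.09. Among G1 regulators 8 of 22 rose (5 without parent replicate 1) and 2 fell (1 by DESeq2 and without any 1 library other than parent replicate 2), and CDKN1B, the inhibitor p27, was at 0.35 ± 0.06. HARS1, the cytosolic histidyl-tRNA synthetase, picked after its values were seen, had 65.3, 70.6 and 67.5 CPM in the KO libraries, against 142, 139 and 143 CPM in the parent libraries (-1.06 ± 0.05; adjusted p = 1.929e-29).

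Interferon and antigen presentation genes that were called were higher in KO, with 1 exception in each list. Of 23 tested interferon response genes 11 rose and 1 fell (median 0.31), with 7 rising by DESeq2 and 7 without KO replicate 2. DTX3L, a ubiquitin ligase, had 36.4, 31.5 and 34.6 CPM in the KO libraries, against 21.7, 23 and 23.7 CPM in the parent libraries (0.58 ± 0.08; edgeR adjusted p = 4.174e-08), and OAS3, a sensor of double-stranded RNA, 101, 97.1 and 90.8 CPM in the KO libraries, against 76.4, 77.0 and 78.7 CPM in the parent libraries (0.31 ± 0.06). RIGI and IFIH1, RNA sensors of the cytosol, rose by 0.60 ± 0.12 and 0.52 ± 0.15. ISG15, a ubiquitin-like protein and a strong interferon target, was lower at 46.3, 46.5 and 41.6 CPM in the KO libraries, against 57.7, 55.6 and 57.9 CPM in the parent libraries (-0.35 ± 0.06; adjusted p = 1.657e-05). Of 17 antigen presentation genes 7 rose and 1 fell: B2M, the light chain of class I molecules, had 301, 310.4 and 305 CPM in the KO libraries, against 264, 261 and 251 CPM in the parent libraries (0.24 ± 0.03), TAPBP, the loading factor tapasin, 79.6, 82.7 and 82.4 CPM in the KO libraries, against 67.1, 65.2 and 67.6 CPM in the parent libraries (0.29 ± 0.05), and HLA-C, whose reads can be shared with other class I genes, changed by 0.32 ± 0.03. In A375, 7.08% of all genes were called higher and 6.54% lower. There 2 of 30 tested interferon genes were called higher, near the share of all genes, and 10 of 23 tested antigen presentation genes. None of either list was called lower.

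Signalling outputs were mixed. Of 20 tested Wnt targets and feedback genes 3 rose and 4 fell. Besides DKK1, RNF43, a ligase that removes Wnt receptors, had 30.6, 28.5 and 29.2 CPM in the KO libraries, against 72.2, 68.9 and 80.8 CPM in the parent libraries (-1.33 ± 0.07; edgeR adjusted p = 3.156e-27) and AXIN2, a scaffold of the destruction complex, 11.2, 11.8 and 13.3 CPM in the KO libraries, against 20.4, 21.2 and 19.7 CPM in the parent libraries (-0.75 ± 0.11; adjusted p = 5.631e-08). Both were lower in all KO libraries, whereas CTNNB1 rose by 0.17 ± 0.03 and CCND1 by 0.15 ± 0.03. Among 19 YAP and TAZ targets 8 rose and 3 fell, with F3 and NT5E falling and AXL rising the most; NT5E, the ectonucleotidase CD73, had 53.4, 50.2 and 50.3 CPM in the KO libraries, against 129.6, 135 and 117 CPM in the parent libraries (-1.31 ± 0.05) and AMOTL2, a YAP-binding angiomotin, 87.8, 93.5 and 92.5 CPM in the KO libraries, against 64.3, 70.4 and 61.7 CPM in the parent libraries (0.48 ± 0.06). CCN1 and CCN2, matricellular targets, rose by 0.50 ± 0.09 and 0.63 ± 0.21. With DS07551382 AMOTL2, CCN1, CCN2 and AXL lay on the other side, at -1.16, -1.002, -0.74 and -0.18. In those libraries 1 of the 19 was called higher and 14 lower, against 24.8% higher and 26% lower of all genes. Of the 11 called in DMSO, 4 were called the same way there and 5 the opposite way. Immediate early genes were called lower in 7 of 18 and higher in 2. With DS07551382, 11 of the 18 were called higher and 3 lower. Of the 9 called in DMSO, 5 were called the same way there and 3 the opposite way. In DMSO FOSL1, an AP-1 subunit, had 84.2, 93.3 and 85.2 CPM in the KO libraries, against 139, 146 and 140.3 CPM in the parent libraries (-0.70 ± 0.05, edgeR adjusted p = 4.825e-20). EGR1, a zinc finger factor, had 17.4, 23.8 and 23.2 CPM in the KO libraries, against 31.4, 37.1 and 33.9 CPM in the parent libraries (-0.67 ± 0.09). Among 21 MAPK feedback genes 5 fell, with the phosphatase DUSP4 at -0.41 ± 0.04 and the ETS factor ETV1 at -0.68 ± 0.07, and 6 rose, 3 without KO replicate 1. SMAD6, an inhibitor of BMP signalling, rose by 1.35 ± 0.20, and ID2 by 0.42 ± 0.05, in a list of which 4 of 18 rose and 2 fell (1 by DESeq2 and without parent replicate 1 or KO replicate 1 or 2, 4 in the fit of 24 libraries). Of 27 growth factors and receptors 6 rose and 8 fell: PDGFC had 34.0, 35.1 and 35.2 CPM in the KO libraries, against 14.3, 17.0 and 15.96 CPM in the parent libraries (1.14 ± 0.09; adjusted p = 2.287e-17) and FGF9 1.75, 3.10 and 1.76 CPM in the KO libraries, against 7.74, 9.28 and 8.51 CPM in the parent libraries (-1.95 ± 0.21; adjusted p = 5.598e-12).

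Matrix and cytoskeleton lists also held changes both ways. Of 29 tested matrix genes 7 rose and 8 fell. COL13A1, a transmembrane collagen, had 3.93, 3.44 and 3.63 CPM in the KO libraries, against 10.6, 11.3 and 11.2 CPM in the parent libraries (-1.58 ± 0.16; edgeR adjusted p = 1.098e-12), COL12A1, a fibril-associated collagen, 165, 159.6 and 166 CPM in the KO libraries, against 222, 238 and 246 CPM in the parent libraries (-0.53 ± 0.04), and PLAU, the urokinase protease, 80.0, 90.8 and 79.9 CPM in the KO libraries, against 53.2, 46.6 and 47.9 CPM in the parent libraries (0.76 ± 0.06; adjusted p = 3.848e-17). KO libraries were lower for both collagens and higher for PLAU, without overlap. THBS1, the matricellular protein thrombospondin 1, was higher by 0.79 ± 0.09 in DMSO and at -1.23 with DS07551382. Of 19 actin genes driven by SRF 6 fell and 4 rose, with ACTG1 at -0.38 ± 0.03 and ACTB at -0.23 ± 0.03, which are highly alike and have pseudogenes. Among 13 integrin subunits 4 fell and 2 rose: ITGB4, of hemidesmosomes, had 188, 184 and 186 CPM in the KO libraries, against 258, 258 and 273 CPM in the parent libraries (-0.50 ± 0.04; adjusted p = 1.796e-18). SLC1A3, a glutamate and aspartate transporter, was the largest rise among 22 amino acid transporters, at 74.8, 67.5 and 73.7 CPM in the KO libraries, against 37.6, 31.1 and 31.9 CPM in the parent libraries (1.10 ± 0.07; adjusted p = 1.055e-22), where 3 rose and 3 fell.

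Of the stress pathways, the unfolded protein response was called in 14.29% of tested members and the others in more than the 21.3% of all genes: 28.95% of the integrated stress response, 33.33% of hypoxia and glycolysis, 40% of heat shock and 47.37% of NRF2 and ferritin genes. Of 38 tested genes of the integrated stress response 8 rose and 3 fell, against 34 higher and none lower in the DS07551382 libraries. In those libraries 24.8% of all genes were called higher and 26% lower. GDF15, a secreted stress factor that is also a p53 target, had 103, 95.3 and 98.7 CPM in the KO libraries, against 47.3, 56.1 and 53.8 CPM in the parent libraries (0.92 ± 0.05; edgeR adjusted p = 9.038e-23). ASNS, the asparagine synthetase, had 83.8, 89.5 and 85.5 CPM in the KO libraries, against 69.5, 70.2 and 69.7 CPM in the parent libraries (0.30 ± 0.05), and PHGDH, the first enzyme of serine synthesis, 90.8, 98.2 and 93.4 CPM in the KO libraries, against 70.5, 73.4 and 76.0 CPM in the parent libraries (0.36 ± 0.05). Serine is the substrate of both phosphatidylserine synthases. SLC38A2, an amino acid transporter of the same response, was lower (-0.31 ± 0.03). In the unfolded protein response 1 of 28 rose and 3 fell (1 by DESeq2 and without parent replicate 1 or 2 or KO replicate 1 or 3), with HSPA5, the chaperone BiP, at -0.08 ± 0.03, a call that 6 settings lost, DESeq2 among them. Of 19 NRF2 and ferritin genes 8 rose and 1 fell (2 without parent replicate 3 or KO replicate 2), with NQO1, a quinone reductase, at 450.5, 464 and 439 CPM in the KO libraries, against 368, 371 and 371 CPM in the parent libraries (0.29 ± 0.03). Heat shock genes fell in 6 of 20 and rose in 2 (1 by DESeq2 and without parent replicate 1 or 2 or KO replicate 1 or 2), with HSPH1 at -0.33 ± 0.03. Among 33 hypoxia and glycolysis genes 6 rose and 5 fell. The glucose transporter gene SLC2A3 had 0.328, 0.573 and 0.330 CPM in the KO libraries, against 5.93, 6.22 and 4.15 CPM in the parent libraries (-3.69 ± 0.34; adjusted p = 2.977e-14) and SLC2A1, which encodes the widely expressed GLUT1, 159, 169 and 158 CPM in the KO libraries, against 233, 234 and 226 CPM in the parent libraries (-0.51 ± 0.04; adjusted p = 9.962e-18). Both lay lower in each KO library, while ADM, the peptide adrenomedullin, rose by 0.85 ± 0.07.

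The remaining lists varied in how many members were called, against 21.3% of all genes. Of 24 tested HOX genes, which set body position, 25% were called, near the share of all genes. The 4 that fell lie in the HOXB cluster (HOXB3, HOXB4, HOXB8 and HOXB9, at -0.42 ± 0.11, -0.34 ± 0.09, -0.29 ± 0.06 and -0.36 ± 0.08). The 2 that rose lie in the HOXA cluster (HOXA9 and HOXA10, at 0.49 ± 0.05 and 0.30 ± 0.07). Of the 6 called, 2 were called the same way with DS07551382 and 1 the opposite way. Of 16 imprinted genes 3 rose and 2 fell (1 by DESeq2 and without KO replicate 1), with PEG10, a retrotransposon-derived gene, at 0.71 ± 0.07 and the growth factor IGF2 at -0.50 ± 0.13. Of 30 BCL2 family and death receptor genes 5 rose and 1 fell, a count that became 2 without parent or KO replicate 1 or 3. Their risers BBC3, BAX and TNFRSF10B are also on the p53 list, and PMAIP1, which encodes NOXA, rose by 0.26 ± 0.06. Of 18 NF-kB and cytokine genes 3 rose and 3 fell, with the adhesion receptor ICAM1 at 0.74 ± 0.15 and the cytokine LIF at -0.35 ± 0.05. Lysosome and autophagy genes rose in 7 of 31 (4 by DESeq2 and without parent replicate 1 or 3 or KO replicate 2) and fell in 2 (1 by DESeq2 and without parent replicate 2 or KO replicate 1, 2 or 3), with the protease CTSB at 0.19 ± 0.04. Oxidative phosphorylation genes rose in 6 of 42 (3 without KO replicate 2) and fell in 1 (none by DESeq2 or without KO replicate 1, 2 without KO replicate 2). Besides PHGDH, 2 of 21 serine, one-carbon and folate enzymes rose (PHGDH included, DESeq2 called 1 of the 3) and 3 fell, with SHMT2, a mitochondrial serine hydroxymethyltransferase, at -0.19 ± 0.04. Of 8 LXR and sterol efflux genes 2 rose (1 without parent replicate 1, 2 or 3 or KO replicate 1, none by DESeq2 or without KO replicate 3) and 2 fell (1 by DESeq2 and without parent replicate 2 or KO replicate 3). ABCA1, a cholesterol exporter, was at 1.06 ± 0.33, not called by DESeq2. Of 10 caveolin and cavin genes 1 fell (2 without KO replicate 2), of 5 melanocyte genes 1 rose and 1 fell, and none of 4 cancer-testis genes and not the 1 tested fibroblast marker was called. CD68, the 1 tested leukocyte marker, was at -0.69 ± 0.22, a call lost by DESeq2 and without parent replicate 1 or KO replicate 1.

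The libraries with DS07551382 compare the same clone with the same parent in 6 separate libraries and hold the inhibitor response as well. There 6685 of 13164 genes (50.8%) were called, 24.8% higher and 26% lower, so many members of any list are called in them. Of the 2804 genes called in DMSO, 2449 (87.34%) had the same sign with DS07551382, 1986 (70.83%) were called the same way and 162 the opposite way. Of the 183 changes of at least 2-fold, 173 had the same sign, 141 were called the same way and 4 the opposite way. The difference itself, DS07551382 minus DMSO, was called for 3275 genes (24.9%), among them 998 of the 2804 and 13 of the 30 largest changes. Those 2 sets were selected on DMSO libraries that the difference also holds, which by itself raises their share. Across all 13164 genes, which are not independent of each other, the 2 sets of log2 fold changes had a correlation of 0.441 (Pearson) and 0.486 (Spearman).

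The A375 clone gives the other PTDSS2 knockout of the study, in another line. Its PTDSS2 RNA averaged 0.895 CPM in DMSO, against 23.7 CPM in the A375 parent libraries (log2 fold change -4.72 ± 0.19). The fall was less deep in HCT116, by a called difference of 2.28 ± 0.27 (HCT116 minus A375, edgeR adjusted p = 5.714e-11). In a fit of all 24 libraries over 14637 genes, 2801 (19.1%) were called in HCT116 and 1993 (13.6%) in A375, 7.08% higher and 6.54% lower. Both lines called 223 genes the same way, 7.961% of the HCT116 and 11.19% of the A375 calls, and 344 the opposite way, 12.28% and 17.26%. Across genes the correlation of the log2 fold changes was 0.016 (Pearson) and -0.065 (Spearman). The difference HCT116 minus A375 was called for 2590 genes (17.7%), 8.25% higher and 9.44% lower, though with library sizes in place of TMM the split was 1469 higher and 1092 lower. Called were 1575 (56.23%) of the HCT116 calls and 25 of the 30 largest changes. Both sets were selected on HCT116 libraries that the difference also holds, which by itself raises their share. NQO1 is a case called alike: it rose by 0.29 ± 0.03 in HCT116 and 0.41 ± 0.03 in A375. MCM3, at -0.86 ± 0.03 in HCT116, was at -0.04 ± 0.04 in A375, and their difference of -0.82 ± 0.05 was called (edgeR adjusted p = 5.52e-27).

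Changes were also read along the gene order of the RefSeq gene table (GRCh38.p14, used for names and order only). Of 12575 windows of 25 neighbouring tested genes, 99.83% had a median log2 fold change within 0.2 of 0. The lowest window, centred on ADD3 and running from CALHM2 to VTI1A, had a median of -0.29 with 11 genes called lower and 1 higher; in the DS07551382 libraries its median was -0.14. The highest, centred on PLEKHA4 and running from SULT2B1 to LIN7B, had a median of 0.26. Chromosome medians lay between -0.064 for chromosome 21 and 0.015 for chromosome 18. Of the 20 tested genes nearest PTDSS2, 10 on each side, 5 were higher and 1 lower, with a median of 0.10. Of all genes tested, 10.5% were called higher and 10.8% lower. PGGHG, a glucosidase of collagen sugars, rose by 0.56 ± 0.08, IFITM3, an antiviral membrane protein with close copies next to it, by 0.40 ± 0.04, B4GALNT4 by 0.31 ± 0.06, SIGIRR by 0.36 and IFITM2 by 0.19, and PSMD13, a proteasome subunit, fell by 0.10 on the log2 scale. The next genes on either side, ANO9 and RNH1, were at 0.23 and 0.05 and were not called. In a wider list of 32 tested neighbours 9 were higher (5 without parent replicate 1) and 1 lower (none by DESeq2 or without parent replicate 2 or 3 or KO replicate 1 or 3). In the A375 clone 9 of 32 tested neighbours were called higher and 3 lower, against 7.08% and 6.54% of all genes.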

How the data were processed

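Poly(A) RNA of 24 samples (2 lines, 2 genotypes, 2 treatments, 3 libraries each) was sequenced; 6 libraries form the comparison described here. The submitters' processing notes name STAR 2.4.2a, RSEM 1.2.23 and the build hg19. No annotation release or strand setting was found in the labels or headers, so antisense and overlapping genes are uncertain. The deposited expected counts per gene, as estimated by the authors with RSEM, were not scaled for depth or length. The deposited TPM, scaled by the authors for length and library, were used for marker sums, and the deposited FPKM were not used. IDs were named through the RefSeq gene table (GRCh38.p14): 25220 of 25343 matched, and IDs without a match held at most 0.0724% of counts.

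Expected counts were rounded to whole numbers and tested with the two-sided quasi-likelihood F test of edgeR 4.0.16 (R 4.3.3; robust fit, TMM, filterByExpr with a minimum count of 10 and total of 15) over all 12 HCT116 libraries, so that the spread was estimated over all of them. P-values were adjusted (Benjamini-Hochberg) over all genes tested, with 0.05 as the threshold. CPM use TMM-scaled library sizes, and the number after ± is a standard error. Comparisons with A375 came from a fit of all 24 libraries. The script was tested on simulated counts. Alternatives were DESeq2 1.42.0, limma-voom 3.58.1, other scalings and filters, other samples in the fit, leaving out each library, and a replicate block. The members of lists and the lists themselves were chosen with earlier results of these data known. Genes were named by rule: the targeted gene with PTDSS1 and PISD, the 15 largest rises and falls of at least 8 CPM without overlap between groups (unnamed loci and antisense genes skipped), up to 4 members per list by adjusted p, and genes at 0 in 1 group with at least 1 CPM in the other. Other named genes are list members or were chosen after their values were seen. Counting intervals and floors cover counting error only. Genes on the Y chromosome, XIST and some other genes that count in the totals are not reported here. Reads of IFITM2 and IFITM3, HLA-C, RGPD8, ACTB and ACTG1, ribosomal proteins and read-through genes may be shared with near-identical genes.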

Additional observations from a re-analysis of the deposited data

Results flagged for a closer look

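Some clone differences of named genes differed between the lines or between the treatments by a test of the difference itself. Most named genes were selected on HCT116 DMSO libraries that both differences also hold. Between the lines, as HCT116 minus A375 log2 fold changes in DMSO (edgeR, 24 libraries), NRP1 differed by -3.867 ± 0.1605 (adjusted p = 3.828e-38), VCAN by -3.654 ± 0.261 (adjusted p = 5.059e-22), SLC2A3 by -3.952 ± 0.3008 (adjusted p = 1.957e-20) and HNF4A by -4.506 ± 1.462 (adjusted p = 0.02027). The HNF4A difference has by far the widest SE of these genes, so its size is uncertain. The differences of ANXA10 (-9.501 ± 0.976, adjusted p = 1.377e-13), ZC4H2 (-8.57 ± 0.7251, adjusted p = 9.949e-18), ZNF595 (-7.867 ± 0.7328, adjusted p = 1.825e-15) and TIMP3 (-7.899 ± 0.919, adjusted p = 3.946e-07) rest on KO libraries with 0 or 1 count, so their size depends on the prior count and is no bound. In A375 in DMSO ANXA10 averaged only 0.475 CPM in KO and 0.217 CPM in parent libraries, which left little room for a fall there.

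Between the treatments, as DS07551382 minus DMSO in HCT116, the clone difference of DKK1, a secreted Wnt inhibitor, was deeper with DS07551382 by -2.475 ± 0.07962 (adjusted p = 1.026e-36). That of ATP10D, a flippase, was smaller by -1.389 ± 0.1659 (adjusted p = 3.942e-10) and that of TMEM200A shallower by 1.078 ± 0.1254 (adjusted p = 1.72e-10). GREB1L differed by -0.9784 ± 0.2056 (adjusted p = 0.0001585), ZNF704 by 0.7666 ± 0.09153 (adjusted p = 4.011e-10) and CEMIP by 0.7517 ± 0.2084 (adjusted p = 0.00453). No group of 3 libraries was tested for a library far from the others.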

How the results depend on the processing

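The count of 2804 called genes in DMSO ran from 2722 to 2910 under other scalings, filters, limma-voom, a replicate block and other samples in the fit. DESeq2 called 1798, of which 1792 were shared; the cause was not tested. The highest of these counts, 2910, came with the replicate block, although equal replicate numbers did not pair the libraries: the correlations of their deviations in DMSO were 0.024, 0.055 and 0.046, and only 2 of the 3 numbers correlated best with themselves. With 1 library left out the count was 2231 to 2464 in DMSO, 6048 to 6209 with DS07551382 and 2162 to 2482 for the difference between the lines; the arm with 2 libraries is then assumed to vary like the rest. Over 231 named genes and 3443 alternative fits no sign turned, 83 fits lost a call, in 23 genes, and 7 gained one. Windows of 15 and 51 genes had a lowest median of -0.33 and -0.13. Genes under about 1 CPM rest on few counts, and for these a difference below the floor of 3 counts was not detectable at this depth.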
